A study of Mus musculus with 16 samples.

Results

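Dense clusters of H3K27ac gain were stretches of the mouse genome in which several short regions, each with more H3K27ac in jejunal epithelial cells lacking NCoR1 than in wild-type cells, lay close together. Regions on the numbered chromosomes were joined when the gap between neighbours was at most 12.5 kb, and joined groups of 4 or more regions were kept. This gave 455 clusters holding 2933 of the 7040 KO-higher H3K27ac regions on 18 numbered chromosomes, or 41.7% of them. The remaining regions stood alone (2013), in pairs (616 groups) or in triples (283 groups). A further group of 13 regions around Vil1 was set aside by the same rule. Its span of 32792 bp also held 10 KO-higher H3K9ac, 8 KO-higher H3K4me3 and 11 KO-higher H3K9me3 regions.

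The study profiled 6 histone modifications by chromatin immunoprecipitation and sequencing (ChIP-seq) in intestinal epithelial cells freshly isolated from the jejunum of C57BL/6 neonates at postnatal day 12. Wild-type animals (WT, labelled F/FUN) were set beside animals with an intestinal deletion of NCoR1 (KO, labelled ΔIECUN), and both labels share the suffix UN. The labels used here do not name the Cre driver of the deletion or say whether animals were pooled. Each mark had 1 library per genotype, so none of the values below has a replicate error, and fewer cells of a type cannot be told apart from less of a mark per cell. The KO and WT H3K27ac libraries were of near-equal depth, with 31846932 and 32095696 tags kept after removal of duplicates.

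H3K27ac is an acetyl mark on histone H3 found at active promoters and enhancers. NCoR1 is a corepressor that nuclear receptors without an activating ligand recruit to DNA, where it brings the histone deacetylase HDAC3. Stretches in which many acetylated elements lie close together are common around genes that define a cell type or its main metabolic programmes, and in small intestinal enterocytes such programmes include lipid absorption and its control by the nuclear receptors LXR, FXR and PPARα.

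Sequences at the summit of the strongest gain within each of 5 large clusters are shown first because the clusters are sets of such elements. Each is a 201-bp window of the mm9 assembly centred on the summit of the region with the highest fold in 1 of the 5 clusters with most regions, outside annotated exons. They are in lower case throughout because none held a match to the motifs searched.
Srebf1 intron (Rai1, Srebf1 and Tom1l2 cluster), chr11:60031990-60032190, plus strand: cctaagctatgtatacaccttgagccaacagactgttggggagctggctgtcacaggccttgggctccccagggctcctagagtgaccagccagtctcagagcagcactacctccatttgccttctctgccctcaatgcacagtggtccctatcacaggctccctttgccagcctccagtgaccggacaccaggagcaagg
3′ of Vegfa (Vegfa cluster), chr17:46153614-46153814, plus strand: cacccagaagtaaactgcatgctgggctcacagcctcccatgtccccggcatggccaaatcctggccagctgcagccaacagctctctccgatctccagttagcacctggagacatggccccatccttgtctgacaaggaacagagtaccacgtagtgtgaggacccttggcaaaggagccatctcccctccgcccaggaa
Ppara intron (Ppara cluster), chr15:85600531-85600731, plus strand: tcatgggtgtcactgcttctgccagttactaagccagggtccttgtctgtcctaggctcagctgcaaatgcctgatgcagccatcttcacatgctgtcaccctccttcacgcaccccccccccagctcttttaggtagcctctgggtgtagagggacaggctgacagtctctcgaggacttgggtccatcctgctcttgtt
upstream of Scd2 (Scd2 cluster), chr19:44359998-44360198, plus strand: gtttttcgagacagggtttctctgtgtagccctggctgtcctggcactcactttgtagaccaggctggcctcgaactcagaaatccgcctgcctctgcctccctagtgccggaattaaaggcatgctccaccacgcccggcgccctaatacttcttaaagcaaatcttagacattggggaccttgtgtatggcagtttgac
Abcg5 intron (Abcg5, Abcg8 and Dync2li1 cluster), chr17:85059236-85059436, plus strand: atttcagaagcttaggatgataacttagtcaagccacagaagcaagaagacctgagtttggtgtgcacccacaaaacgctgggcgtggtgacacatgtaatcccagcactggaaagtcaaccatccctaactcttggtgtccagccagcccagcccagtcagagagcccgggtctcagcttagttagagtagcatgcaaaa
The window beside Vegfa lay just past the 3′ end of the gene, 4607 bp from the nearest annotated transcript start, and the window near Scd2 lay 8068 bp before the Scd2 start. The Srebf1, Ppara and Abcg5 windows were intronic and lay 2016, 2013 and 14374 bp from the nearest annotated transcript start.

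Clusters were short stretches only partly filled with gained regions. Their span had a median of 14589 bp and ranged from 2072 to 79736 bp. The gained regions covered a median of 8.4% of the span (2.5% to 63.7%). A cluster held a median of 5 regions and at most 39. Its summed pileup, the sum over its regions of the number of overlapping KO tags at the summit, had a median of 448 (109 to 3945). Together the spans made up 7922119 bp, which is 0.333% of the length of these chromosomes. The 56 clusters with 10 or more regions held 27.6% of all clustered regions.

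**Figure D1:**
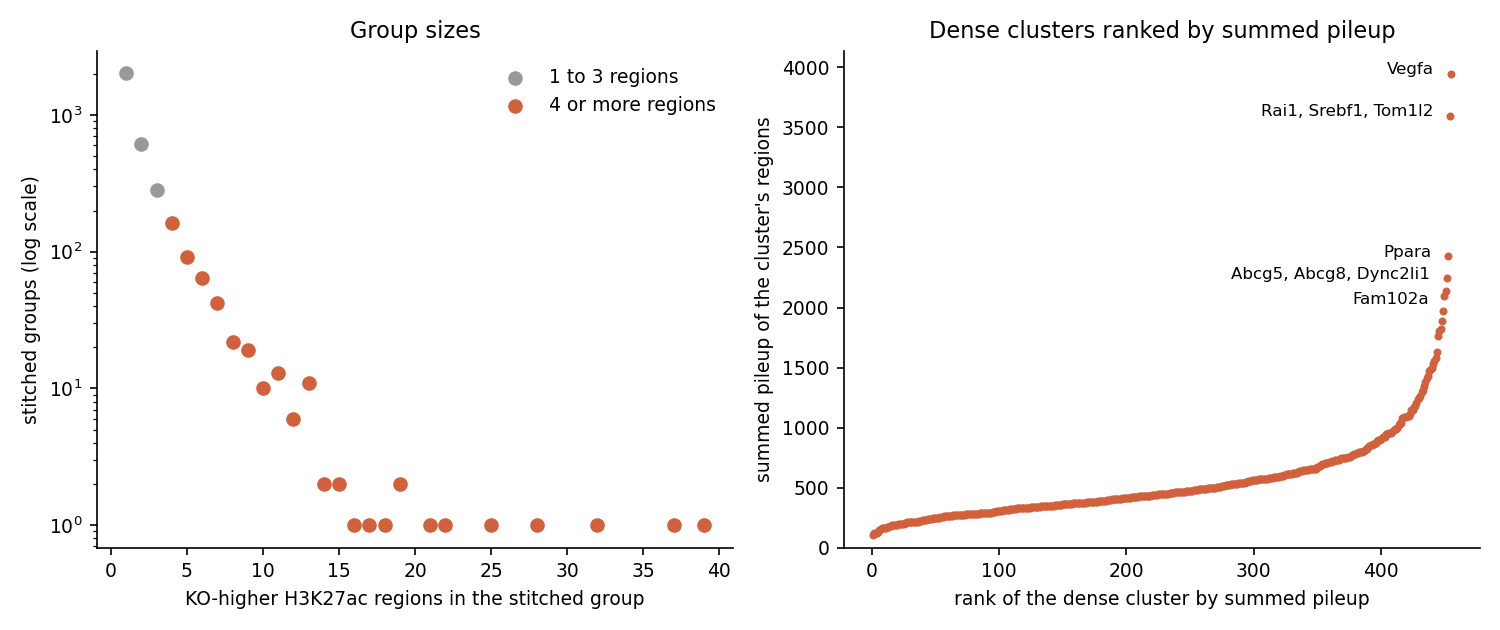
Left: number of stitched groups (log scale) against the number of KO-higher H3K27ac regions in the group, without the Vil1 group. Right: summed pileup of each of the 455 dense clusters in rank order. Vegfa and the Rai1, Srebf1 and Tom1l2 cluster stand apart at 3945 and 3596, and the median cluster lies at 448.

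These values describe the choice itself, since clusters were chosen on the H3K27ac list. The longest gap joined was 12475 bp and the shortest gap not joined was 12509 bp. Groups of 4 regions, just inside the rule, had a median span of 10945 bp and a median summed pileup of 332, whereas groups of 3, just outside it, had 7750 bp and 228. The highest fold within a group was alike in both, with medians of 3.1 and 3.13. Within clusters 867 of 2478 gaps (35%) were of 1 kb or less, so the number of regions depends on how neighbours at such distances are counted. Counting regions within 1 kb of each other as 1 reduced the clustered regions to 1683. A shorter stitching gap of 5 kb left 1841 regions in clusters. Requiring a −log10 q of at least 5 left 270 clusters.

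Clustered regions differed little from single regions in their own size and position. Their median fold of KO over WT was 2.42, against 2.71 for single regions, and their median pileup was 81, against 53. Introns held 49.2% of clustered regions and 45.5% of single ones, and promoters (within 1 kb of a start) held 10.1% of each. The GC content of the summit windows had a median of 54.7% in clusters and 54.2% among single regions. Clustered regions thus had a higher median pileup but not a higher median fold.

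Clusters were unevenly spread over the chromosomes. Chromosome 19 had 34 clusters, or 55.4 per 100 Mb, followed by chromosome 11 with 29.5 and chromosome 17 with 27.3. Among the 18 chromosomes analysed here chromosome 1 had the lowest density, 10.6 per 100 Mb. The KO-higher H3K27ac list held no region on chromosome 18, so that chromosome is absent from this ranking and from the gene counts below. Why the list held none there was not tested. Gene density did not follow the same order. Chromosomes 7 and 11 had the same gene density, 1353 protein-coding genes per 100 Mb, but 13.1 and 29.5 clusters per 100 Mb. Per 100 protein-coding genes, chromosome 19 had 4.72 clusters and chromosome 7 had 0.969. Of the 455 clusters, 103 (22.6%) had another cluster within 100 kb.

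By the stitching rule as given, the cluster with most regions covered Srebf1, which encodes the transcription factor SREBP1 that drives fatty acid synthesis and is itself an LXR target. It ran over chr11:60011439-60061053, reached into Rai1 and Tom1l2, and held 39 regions with a summed pileup of 3596 and folds of 1.44 to 4.65. Srebf1 is on the minus strand, and the regions from 60042711 onward lay upstream of its first base (60036083). They lay within Tom1l2 and had folds up to 4.19. Of all 39 regions 17 lay at promoters and 18 in introns. The regions were tightly packed, and with neighbours within 1 kb counted together the 39 became 9, fewer than in the clusters of Vegfa (19), Abcg5 (14) and Ppara (13). With a 5-kb gap the Srebf1 cluster held 24 regions and the Vegfa cluster 26, so the first place depends on these settings. In the KO-higher H3K9ac list the same span held 23 regions with folds of 1.63 to 4.78, and 23 of the 39 H3K27ac regions shared bases with them.

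The widest cluster and the one with the highest summed pileup lay at Vegfa, the gene for the vascular endothelial growth factor A. Its 37 regions spread over 79.7 kb (chr17:46086672-46166407) and 25 of them lay between genes. With regions within 1 kb counted as 1 there were 19, and at a −log10 q of at least 5 there were 21. Folds were modest, at 1.44 to 3.59, while the pileup reached 215. KO-higher H3K9ac formed 30 regions in the span, and 26 of the 37 H3K27ac regions shared bases with them, the largest overlap among the 5 clusters with most regions.

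Ppara, which encodes the fatty acid receptor PPARα, carried 32 regions over 58.8 kb (chr15:85564753-85623585). None lay between genes, and 26 were in introns. Folds ran from 1.72 to 6.75, and the 13 KO-higher H3K9ac regions in the span reached 7.11. With regions within 1 kb counted as 1, the 32 became 13, and a 5-kb gap left 14. The cluster began just before the annotated gene and ran through most of its body.

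Scd2, which encodes a stearoyl-CoA desaturase that makes monounsaturated fatty acids, had the strongest gains among these large clusters. Its 28 regions (chr19:44320830-44374767) had a median fold of 5.78 and a highest fold of 9.4, and 19 of them lay between genes. Those from 44320830 to 44332291 lay nearer the start of another gene, 8666 to 19914 bp away, than that of Scd2. With regions within 1 kb counted as 1, the 28 became 8, and a 5-kb gap left 17. The 11 KO-higher H3K9ac regions in the cluster had a median fold of 6.19 and reached 11. KO-higher H3K4me3, a promoter mark, added 3 regions with folds of 3.53 to 4.09.

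At Scd2 the gain of acetylation met a loss of the repressive mark H3K27me3, which modifies the same lysine. The span held 9 of the 10 WT-higher H3K27me3 regions found in all dense clusters, with folds of WT over KO of 4.29 to 6.51. The region of highest fold, 6.51, covered the Scd2 start at chr19:44367906-44368675 and shared bases with an H3K27ac region of fold 7.23. All but 1 of the 9 shared bases with a gained H3K27ac region. The other lay in the Dmrt1 cluster, at fold 3.61. Over all clusters 8 regions (0.273%) shared bases with WT-higher H3K27me3, and they were all 8 such regions in the KO-higher H3K27ac list, whose share was 0.114%.

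Abcg5 and Abcg8 encode the paired transporter that returns sterols to the gut lumen. Their shared cluster, which reaches into Dync2li1 (chr17:85042991-85089805), held 25 regions with folds of 1.76 to 4.02, or 14 with regions within 1 kb counted as 1 and 14 with a 5-kb gap. It also held 21 KO-higher H3K9ac regions, with folds up to 6.29, and 5 KO-higher H3K4me3 regions, which were the only dense cluster that the same rule gave in that H3K4me3 list apart from Vil1. Here 12 of the 25 H3K27ac regions shared bases with H3K9ac. The remaining H3K9ac gain fell in the same span between the H3K27ac regions.

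**Figure D2:**
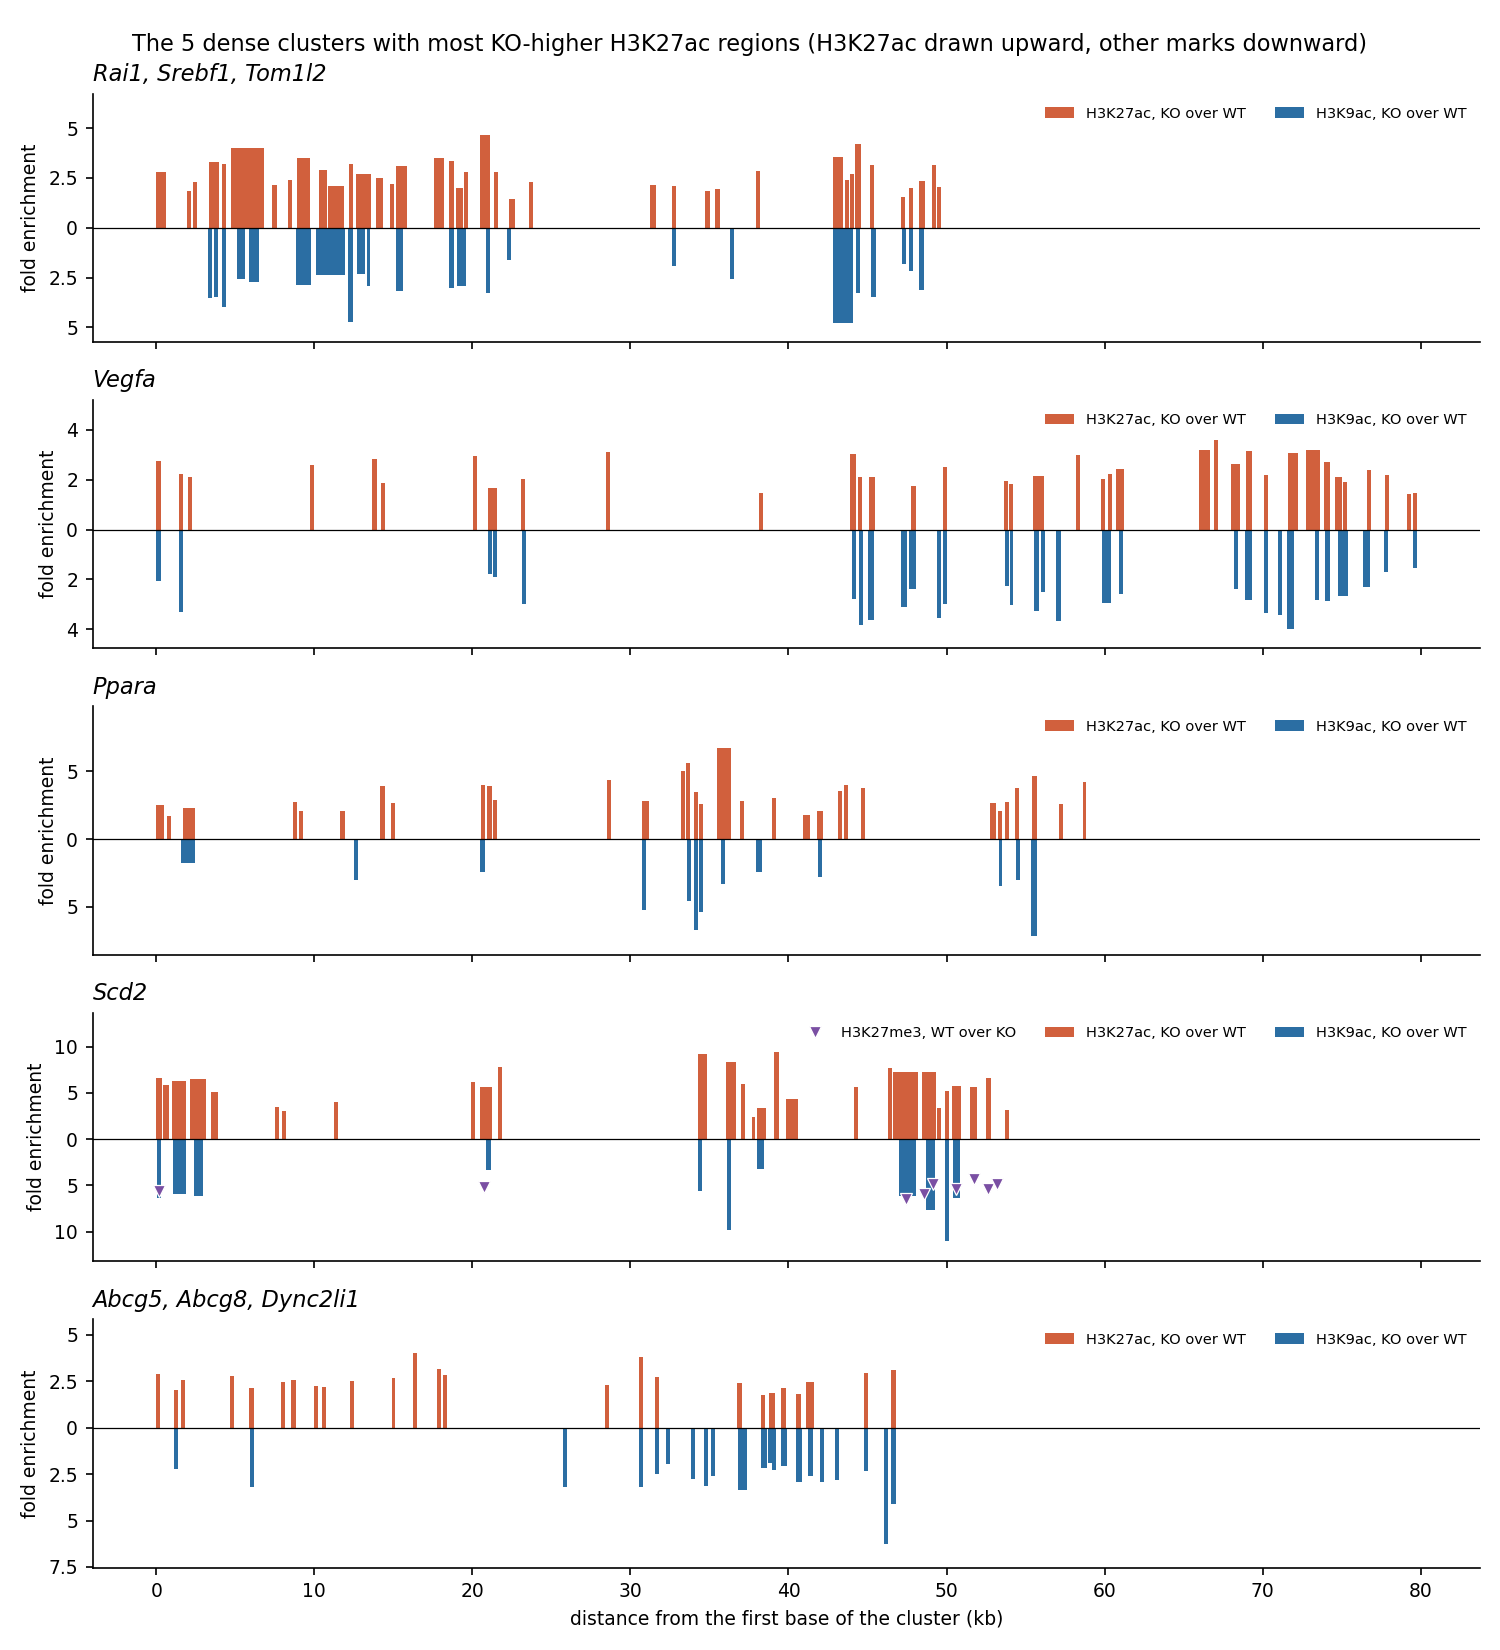
Fold enrichment along the 5 dense clusters with most regions, by distance from the first base of the cluster. Bars upward are KO-higher H3K27ac regions, bars downward are KO-higher H3K9ac regions and triangles are WT-higher H3K27me3 regions (WT over KO). Very short regions are drawn 0.25 kb wide. H3K27me3 appears only in the Scd2 panel, at 9 positions, and the 26 shared regions at Vegfa lie mostly to the right.

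The next clusters by number of regions lay at metabolic, structural and other genes. Fam102a had 22 regions, which fell to 6 when those within 1 kb were joined and to 12 with a 5-kb gap. A cluster over Elmod3, Retsat and Tgoln1 had 21 regions, which fell to 12 and 9. Retsat encodes retinol saturase. Ezr, the gene for ezrin that ties the microvillus membrane to actin, had 19 regions over 62.2 kb, which fell to 12 with regions within 1 kb joined, to 6 with a 5-kb gap and to 11 at a −log10 q of at least 5. Slc6a19, the apical neutral amino acid transporter, shared 19 regions with its neighbour Slc6a18, which fell to 12 at a −log10 q of at least 5. Lpcat3, an LXR-responsive enzyme of phospholipid remodelling, shared 18 regions with Emg1 and Phb2. Coq2, an enzyme of coenzyme Q synthesis, had 17 and Nr1i2, the gene for the xenobiotic receptor PXR, had 16. With regions within 1 kb counted as 1, these last 2 clusters had 10 and 7, and a 5-kb gap left 10 at Coq2. By summed pileup the 12 leading clusters also included Efna1 (2092), the cluster of Apoa1, Apoc3 and Sik3 (1824) and 4933407C03Rik (1632).

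The highest single folds lay mostly in smaller clusters, Scd2 apart. The highest fold of any clustered region, 11.7, lay between genes in a 6-region cluster assigned to Glrx2. A 4-region cluster near Scd1, about 2.6 kb long, followed at 10.7. Abca1, the transporter that loads cholesterol onto apolipoprotein A1, had 8 regions upstream of its start with a highest fold of 8.8. A region in Abcg1, a related sterol exporter, had 8.4. A cluster with no protein-coding gene assigned on chromosome 3 had a region of fold 8.91.

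H3K9ac, a second acetyl mark measured in other libraries, was gained more often in clusters than elsewhere. Of the 2933 clustered regions, 490 (16.7%, 95% Wilson interval 15.4% to 18.1%) shared at least 1 base with a KO-higher H3K9ac region. Over all 7040 regions the share was 10.3%, and it was 3.87% for single regions, 6.33% in pairs and 8.36% in triples. These intervals cover counting error only, and regions of 1 cluster share their source. A higher pileup also went with more sharing, so the shares were split at pileups of 53 and 91. Sharing was 5.1% in clusters against 0.791% for single regions in the low class, 14.3% against 4.35% in the middle class and 25.7% against 10.2% in the high class. The order also held by place, with 17% against 3.06% in introns and 28.3% against 6.86% at promoters.

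**Figure D3:**
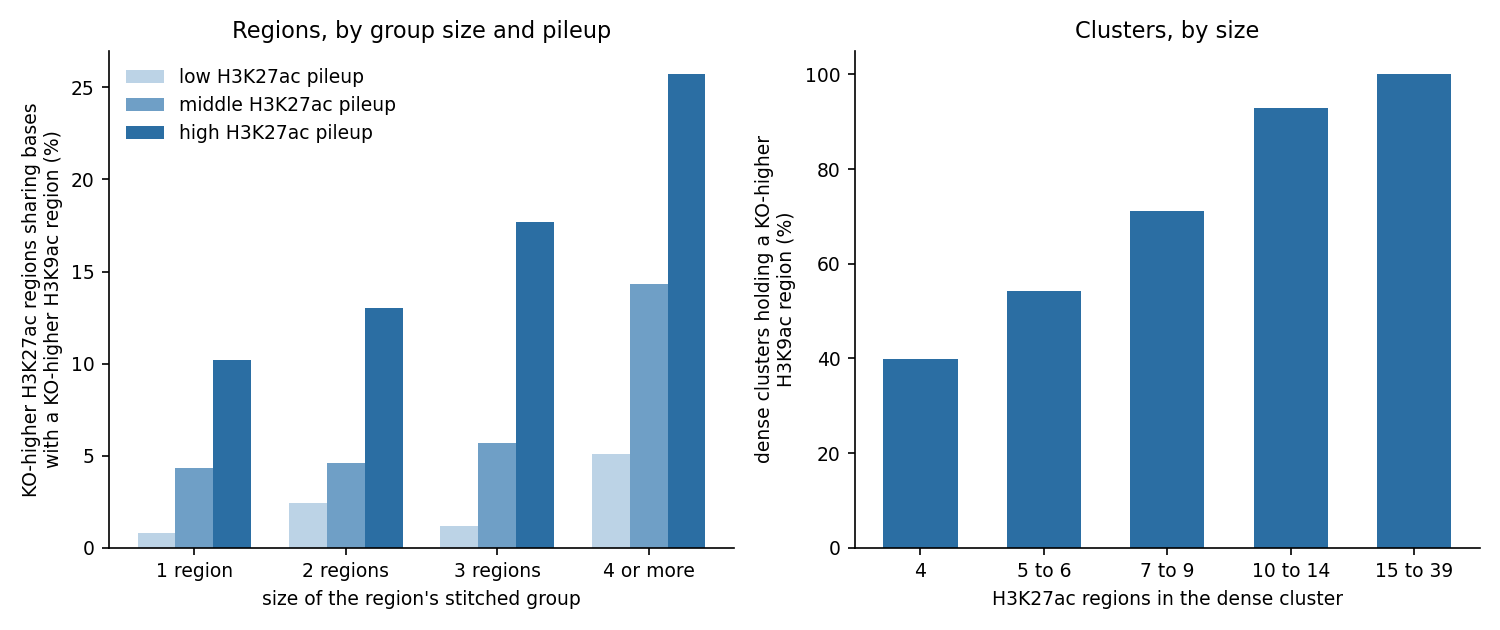
Left: percent of KO-higher H3K27ac regions that share bases with a KO-higher H3K9ac region, by size of the stitched group and by H3K27ac pileup (up to 53, to 91 and above). Right: percent of dense clusters with at least 1 KO-higher H3K9ac region in the span, by number of H3K27ac regions. The dense bars reach 5.1%, 14.3% and 25.7%, and the cluster share rises from 39.8% to 100%.

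Counted by cluster, 260 of 455 (57.1%) held at least 1 KO-higher H3K9ac region in their span, against 77 of 283 triples (27.2%). The share was 39.8% in clusters of 4 regions, 71.1% in those of 7 to 9 and 100% in the 14 clusters of 15 or more, where 38.1% of the regions themselves shared bases. Longer spans have more room for such a region. Per 100 kb of span there were 9.9 KO-higher H3K9ac regions in dense clusters, 5.17 in triples and 4.16 in pairs. Single regions had 19.1 per 100 kb, but there the span is the region itself and has no gap. In all 784 of the 1870 KO-higher H3K9ac regions (41.9%) fell within dense clusters.

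The H3K9ac list clustered in the same way by itself. The same rule applied to it gave 90 clusters, and 71 of them (78.9%) met a dense H3K27ac cluster, which is 15.6% of the H3K27ac clusters. The opposite lists clustered less. The 2463 WT-higher H3K27ac regions gave 27 clusters, none of which met a KO-higher one. When the KO-higher list was limited to its 2463 regions of highest −log10 q, it gave 81 clusters holding 19.8% of those regions, against 6.62% of the WT-higher ones. For H3K9ac at 1870 regions in each direction the counts were 90 clusters in the KO-higher list and 6 in the WT-higher list. There the lowest −log10 q was 1.32 and 1.91.

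Few clustered regions shared bases with changed methylation marks. KO-higher H3K4me3 shared bases with 19 clustered regions (0.648%), against 0.149% of single regions, 0.487% in pairs and 0.236% in triples, which is 3, 6 and 2 regions. The share over the whole list was 0.54%, which includes 8 regions at Vil1. By span, 28 of the 122 KO-higher H3K4me3 regions (23%) fell in the spans of 18 clusters, while all dense cluster spans make up 0.333% of these chromosomes. Length is not a matched background for a promoter mark, since 44.8% of clusters contained a gene start. The highest H3K4me3 folds in the cluster spans were 9.74 at Hgd, an enzyme of tyrosine breakdown, 6.24 at Fmo5, a flavin monooxygenase gene, and 5.75 at Apob, the structural protein of chylomicrons. Areg, an EGF receptor ligand, reached 5.72 and Pdk4, a mitochondrial kinase that restrains glucose oxidation, reached 5.27. WT-higher H3K4me1, an enhancer mark, shared bases with 43 clustered regions (1.47%, against 1.07%), and its 54 regions in 49 clusters included 4 at Scd2. WT-higher H3K4me3 shared bases with 7 (0.239%, against 0.355%).

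Overlap with lost acetylation or with H3K9me3 was rare over the whole list as well as in clusters. No clustered region shared bases with a WT-higher H3K9ac region, against 0.0142% of all regions, or with a KO-higher H3K9me3 region, against 0.185%, and 9 of the 13 regions behind the latter share lay at Vil1. A single WT-higher H3K9me3 region, of fold 3.58, met a region of the Aldh18a1 cluster, which was the only such overlap in the list (0.0142%). WT-higher H3K27ac comes from the same 2 libraries as the list itself, read in the opposite direction, and it shared no bases with any gained region. A single WT-higher H3K27ac region, of fold 1.69, lay between gained regions in a span, that of Lad1.

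A protein-coding gene body overlapped 355 of the 455 clusters (78%), and 204 (44.8%) contained a gene start. The nearest start within 50 kb was used for 70 others, and 30 had no gene assigned. This gave 478 cluster genes, which is 2.3% of the 20764 protein-coding genes on these chromosomes. Cluster genes were long, with a median of 31950 bp against 15378 bp, and a longer gene has more room to overlap a cluster. The lists of genes below have median lengths of 10059 to 51839 bp. In all 53 listed genes were cluster genes.

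Genes of lipid handling were cluster genes more often than the background of 2.3%. That background counts all protein-coding genes, expressed in these cells or not, and the lists were chosen with earlier results of these data known. Other lists of enterocyte genes also lay above it, such as digestive hydrolases and nutrient transporters (33.3%). Of 21 LXR and FXR targets of sterol and bile acid handling, 10 (47.6%) had a dense cluster, namely Srebf1, Scd2, Abcg5, Abcg8, Lpcat3, Abca1, Abcg1, Apoe, Nr1h4 and Scd1. Nr1h4, the gene of the bile acid receptor FXR, was among the smaller ones with 4 regions. Of the other 11 genes, 4 had only groups of 1 to 3 regions (among them Npc1l1, the cholesterol importer) and 7 had none.

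Among 29 genes of the PPAR receptors and of fatty acid uptake, storage and oxidation, 11 (37.9%) were cluster genes and 12 more had smaller groups. Ppara led with 32 regions. Fabp1, a fatty acid binding protein, had 13 over 40.9 kb. Plin2, which coats lipid droplets, had 8 H3K27ac and 8 KO-higher H3K9ac regions. Ehhadh, an enzyme of peroxisomal oxidation, had 6 within 7.24 kb with a highest fold of 5.29. Acot1, an acyl-CoA thioesterase, had 8.

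Chylomicron and triglyceride assembly had the highest share, 8 of 13 genes (61.5%). Apoa1 and Apoc3 lie in 1 cluster of 13 regions with a low median fold of 1.87 and a high summed pileup of 1824. Mogat2, which re-esterifies absorbed monoacylglycerol, had 12 regions at a median fold of 1.86. Apoc2 and Apoe also share 1 cluster of 8 regions. Lipe, the hormone-sensitive lipase, had 6 and Mttp, which lipidates apolipoprotein B, had 5. The median folds of these clusters were lower than the 5.78 at Scd2 and the 5.35 at Abca1.

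Absorptive functions were also represented. Digestive hydrolases and nutrient transporters had 7 of 21 genes (33.3%), including Slc6a19 with 19 regions, Mgam, an intestinal maltase-glucoamylase gene, with 7 regions at a median fold of 4.31, and Slc9a3, the apical sodium-proton exchanger, with 7. Slc3a1, part of a cystine transporter, had 6 at a median fold of 3.91. Slc5a1, the sodium-glucose cotransporter, had 10 regions in 2 clusters, and Slc34a2, a phosphate transporter, had 5. Brush border structure and enterocyte maturation had 5 of 18 (27.8%), namely Ezr (19 regions), Pls1 (9), Alpi (7), Eps8 (6) and Krt20 (5). Eps8, which caps and bundles actin in microvilli, had 9 KO-higher H3K9ac regions in its span.

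Retinoid, vitamin D and thyroid hormone genes had 5 of 20 (25%). Dhrs3, a retinaldehyde reductase, had 11 regions, Rdh7 had 7 and Dio1, a thyroid hormone deiodinase, had 6. Rara and Thra, which encode nuclear receptors that bind NCoR1, had 4 each. Detoxification had 3 of 30 (10%), the receptor gene Nr1i2, with 20 regions in 2 clusters, and the exporters Abcc2, with 12 regions at a median fold of 3.07, and Abcg2, with 5. Another 13 of that list, including Cyp3a11, had only groups of 1 to 3 regions.

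Among regulators the counts were of 1 or 2 genes. Of 22 enterocyte transcription factors, 2 (9.09%) were cluster genes, Creb3l3 with 9 regions and Prdm1 with 4, while Hnf4a, Hnf4g, Gata4, Gata5, Maf and Tcf7l2 were among those with smaller groups. Of 7 genes of the corepressor complex 1 was a cluster gene, Tbl1xr1 with 7 regions. Ncor1 itself had 1 gained region, in no cluster. Rnf43, an inhibitor of Wnt signalling, was the 1 of 15 stem cell and Wnt genes, with 6 regions.

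None of 19 secretory, 13 immune and 14 stromal, endothelial, muscle and nerve marker genes had a dense cluster. In lists of this size a count of 0 lies near the background of 2.3%. None of them had a smaller group either, whereas 9.57% of all protein-coding genes had only groups of 1 to 3 regions.

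**Figure D4:**
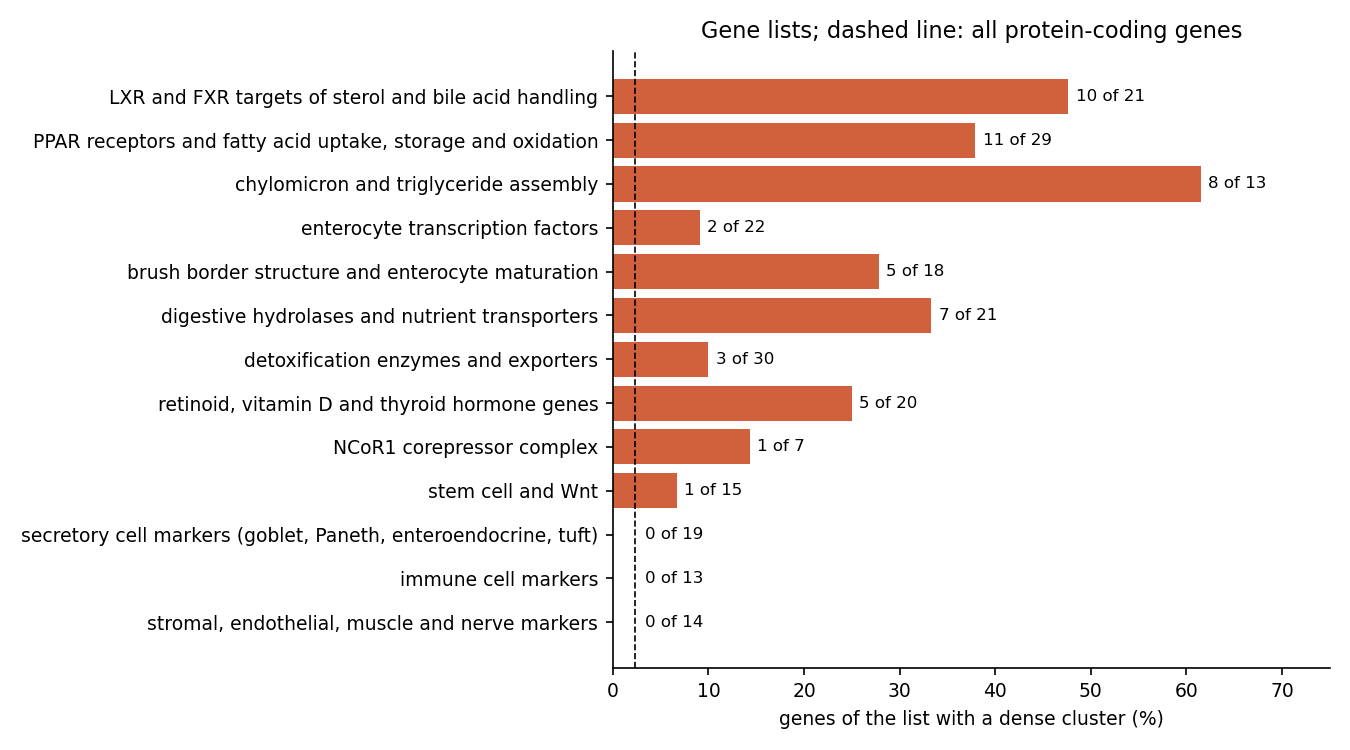
Percent of the genes of each list that had a dense cluster, with counts beside the bars. The dashed line marks 2.3%, the share of all protein-coding genes. Chylomicron assembly (8 of 13) and LXR and FXR targets (10 of 21) have the longest bars, and the bottom 3 lists of other cell types have none.

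RNA values came from the authors' deposited table of genes near WT-higher H3K4me1 regions, which gives a log2 fold change, read from its column names as KO over WT, and a false discovery rate (FDR) per gene. It is not a sample of all genes, and the age and cells of its RNA libraries are not given in the sources used here. Of 1347 genes of the authors' deposited table found in the annotation, 5.72% were higher in KO and 10.5% lower at an FDR under 0.05. The authors' deposited table held 57 cluster genes. Of these 57 genes, 29 (50.9%, 95% Wilson interval 38.3% to 63.4%) were higher and 1 was lower in the authors' deposited table, with a median log2 fold change of 0.26. Genes with groups of 1 to 3 regions were higher in 36 of 193 cases (18.7%) and lower in 12 in the authors' deposited table. Genes with neither were higher in 12 of 1097 cases (1.09%) and lower in 129 (11.8%) in the authors' deposited table. This last class includes uncalled genes with a log2 fold change of 0.0000, and the classes were not matched for expression.

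**Figure D5:**
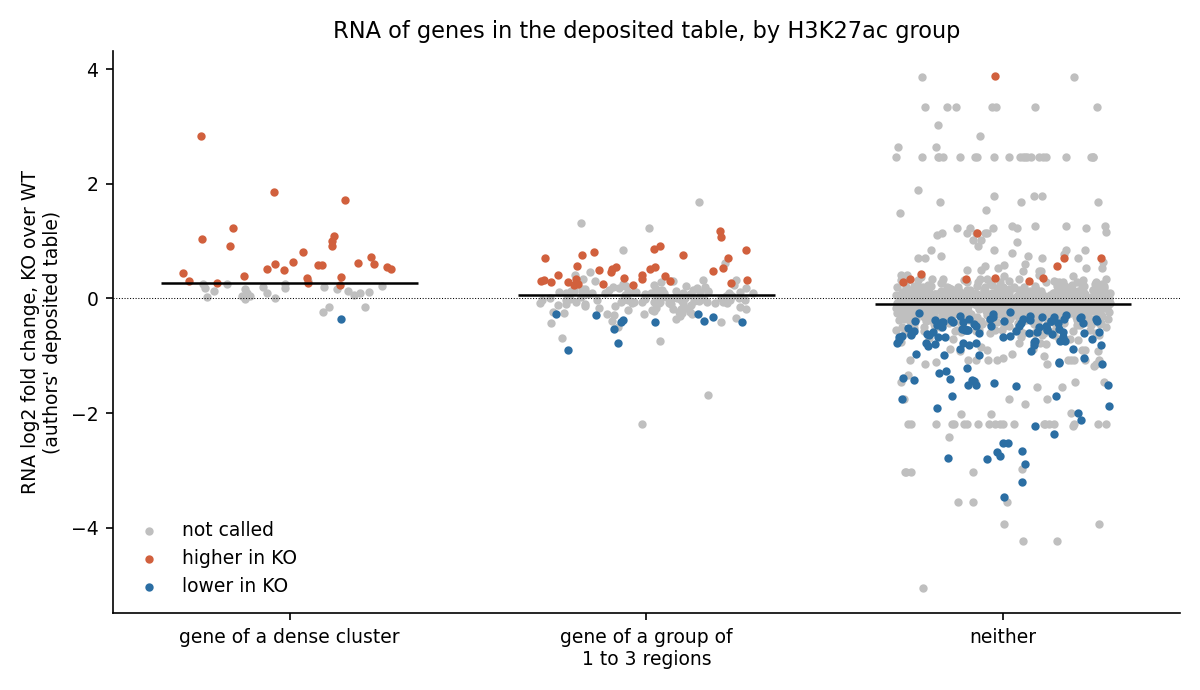
RNA log2 fold change of KO over WT from the authors' deposited table for genes of dense clusters (57), genes with groups of 1 to 3 regions (193) and other genes (1097). Each point is a gene, coloured by the authors' FDR at 0.05, and the line is the median (0.26, 0.05 and −0.09). Points called higher make up more of the dense column, and a single point there is called lower.

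Among these 57 genes Abca1, Scd1 and Scd2 had the largest changes. Srebf1, Vegfa and Ppara were not among the 57. In the authors' deposited table Abca1 had a log2 fold change of 2.83 (FDR 8.60e-113), Scd1 1.85 (FDR 1.32e-10) and Scd2 1.72 (FDR 1.23e-81). Abcg5 followed at 1.23 (FDR 6.38e-56) and Lpcat3 at 1.04 (FDR 8.76e-45) in the authors' deposited table. The authors' deposited table gave Krt20, a keratin of mature enterocytes, 1.10 (FDR 4.53e-20), Farp2 1.01 (FDR 8.01e-27), Plin2 0.92 (FDR 9.25e-29) and Tmcc3 0.92 (FDR 3.94e-20). Mttp (0.59, FDR 1.26e-09), Dhrs3 (0.64, FDR 1.12e-10), Efna1 (0.55, FDR 1.07e-07) and Ezr (0.40, FDR 7.09e-06) rose less in the authors' deposited table. The 1 lower gene in the authors' deposited table was Osbpl3, an oxysterol-binding protein gene with a 7-region cluster, at −0.36 (FDR 0.00233). Sik3, in the cluster of Apoa1, was at −0.15 (FDR 0.503) in the authors' deposited table.

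Cluster genes with a KO-higher H3K9ac region in the span were higher in 23 of 38 cases (60.5%) in the authors' deposited table, and those without in 6 of 19 (31.6%). Their Wilson intervals, 44.7% to 74.4% and 15.4% to 54%, overlap. By size, 6 of 15 genes with a 4-region cluster were higher in the authors' deposited table and 14 of 25 with 7 or more, also with overlapping intervals (19.8% to 64.3% and 37.1% to 73.3%).

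Short motifs were about as frequent at clustered summits as over the whole list. Exact matches were searched on both strands of the 201-bp windows of all 7040 regions. The nuclear receptor half-site AGGTCA was in 15.4% of clustered windows and 14.3% of all windows. The HNF4 core CAAAGTCC was in 0.546% and 0.653%, and the GATA motif AGATAA in 4.26% and 4.32%. The CDX motif TTTATGG was in 1.26% and 1.22%, the AP-1 motif TGANTCA in 5.08% and 4.84%, and the KLF motif GGGTGTG in 7.67% and 7.59%.

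A direct repeat of half-sites with 4 bases between (DR4), the arrangement LXR binds, was in 2 of 2933 clustered windows and 5 of all 7040. The repeat with 1 base between (DR1), which PPARα and HNF4 bind, was in 5 and 10. Half-sites in these repeats could vary at bases 1 and 3, and they may overlap the AGGTCA matches. The 2 clustered DR4 windows are shown with the motif matches in capitals. Their regions had folds of 4.03 and 1.99.
intron in the Ak3 and Cdc37l1 cluster, chr19:29109155-29109355, plus strand: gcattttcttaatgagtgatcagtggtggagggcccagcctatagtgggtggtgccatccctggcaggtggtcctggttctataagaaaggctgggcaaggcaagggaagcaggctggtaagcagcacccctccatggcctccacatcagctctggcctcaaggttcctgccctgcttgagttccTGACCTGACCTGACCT
between genes in the E030010A14Rik and Pgm5 cluster, chr19:24746296-24746496, plus strand: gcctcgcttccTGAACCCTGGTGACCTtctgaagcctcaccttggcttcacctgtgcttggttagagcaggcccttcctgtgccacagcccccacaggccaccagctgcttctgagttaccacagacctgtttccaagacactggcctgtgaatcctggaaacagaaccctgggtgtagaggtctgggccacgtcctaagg
In the Ak3 and Cdc37l1 window the repeat was part of a tandem run of half-sites at the window's edge. Neither region shared bases with KO-higher H3K9ac. A lack of these letters says only that they were not in a window.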

How the data were processed

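H3K27ac, H3K9ac, H3K4me3, H3K4me1, H3K9me3 and H3K27me3 were profiled in 12 ChIP-seq libraries of WT and KO jejunal epithelial cells. Tools listed in the submitters' processing notes are Bowtie2 2.2.9, CASAVA 1.8.2, HOMER 3.12 and MACS2 2.1.1, with mm9 as the genome, whereas the region lists carry MACS 2.0.10.20130419 in their headers. Per the file headers, each deposited list came from a comparison of 1 genotype's library with the other's as control, at a q-value cutoff of 0.05. It gives, per region, a pileup signal, a fold enrichment ratio and −log10 p and q as the authors' peak caller wrote them. The authors' deposited RNA table gives log2 fold changes and an FDR (adjusted p-value). Its direction, KO over WT, was read from its column names, with the group named first as the baseline. Its 12 columns of values per library were not used, because they match no sample label here. The KO list for H3K4me1 and that for H3K27me3 repeated the WT lists and were used once.

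From these, regions were stitched, overlaps of at least 1 bp counted and windows read from mm9 with Python 3.11.15, pandas 2.3.3, scipy 1.17.1 and pysam 0.24.0. Stitching and overlaps were tested on simulated data. Genes came from GENCODE vM1 on mm9. Cluster genes overlap a span with their body or else have the nearest start within 50 kb. The models of Fgfr2 and Gm20388, which hold 31 and 72 whole genes, were left out after the data were seen. Of 253 genes on 13 lists, 242 matched the annotation, and 1347 of 1549 genes with RNA values did. Members and lists were chosen with earlier results of these data known.

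Genes were named by rule. They were those of the 12 clusters with most regions or the highest summed pileup, up to 6 cluster genes per list, up to 8 per direction of the RNA change, and Ncor1. Glrx2, Hgd, Fmo5, Apob, Areg, Pdk4, Dmrt1, Lad1, Aldh18a1, Abcg1, Nr1h4, the genes in smaller groups and the motif windows' genes were named after their values were seen. No test was run, since each mark has 1 library per genotype and regions of 1 library are not replicates. Wilson intervals (95%) cover counting error only. Kept tags per library ranged from 23925163 to 32444815. A few results of the same kind are not reported here.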

Additional observations from a re-analysis of the deposited data

Results flagged for a closer look

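The KO-higher H3K27ac list also held 71 regions outside the numbered chromosomes, which the cluster rule leaves out. Chromosome X had 54, in groups of at most 3. A sequence named UGT1A had 12, of which 11 formed 1 group over 35884 bp with folds of 1.5 to 2.56, so it would have met the size rule. The rest lay on unplaced sequence of chromosomes 9 (4) and 1 (1).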

How the results depend on the processing

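Under the alternatives tried, 29 of 46 values of the main results were counted as close to the reported one and 17 as moved. Those counted as close included 325 clusters with a 5-kb gap and 308 with regions within 1 kb counted as 1, against 455. Of 72 cluster sizes, 51 stayed within 1.5 times and 21 did not. With a 5-kb gap 1841 regions were clustered and the share overlapping gained H3K9ac was 19.9%, while 25 kb gave 15.3%. Clusters of 3 or more regions numbered 738 (14.8% sharing) and of 5 or more 294 (18.4%). Counting regions within 1 kb as 1 gave 1683 regions (19.7%). A −log10 q of at least 5 left 270 clusters, 1628 regions, 20.2% sharing and 168 clusters with H3K9ac. An overlap of 50% gave 14.6%. By pileup class, a split added after seeing the data, the share was 5.1%, 14.3% and 25.7%. In each of these except the 50% overlap, the alternative itself changes which regions are counted. The 50% overlap changes only which regions count as sharing. The share of cluster genes higher in KO in the authors' deposited table stayed between 43.9% and 55.6%, and listed cluster genes numbered 40 to 65. Duplicate removal left 24263055 to 32095696 tags in the acetylation libraries, and weak gains may be missed at this depth. No paired analysis was possible because no result comes from a test and each group has 1 library per mark.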
